A study of Mus musculus with 11 samples.

Results

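The genes described here are 34 genes of glycolysis and the hypoxia response, chosen by name: glucose and lactate carriers, the glycolytic enzymes, their regulators, the oxygen-sensing genes Hif1a, Egln1 and Egln3, and 6 further genes known to respond to hypoxia. A probe set annotated with a single gene symbol was found for 32 of them, among 18194 genes named in that way on the array. Gpi1 (glucose-6-phosphate isomerase) and Eno1 (the widely expressed enolase) were not named by such a probe set and are not analysed here. Where several such probe sets existed, the one with the highest average across the 11 arrays stood for the gene, and all 32 passed the filter on low values, which 13286 genes passed. Gapdh was read from the array's own 3' control probe set for that transcript.

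Glycolysis turns glucose into pyruvate through a chain of cytosolic enzymes, and part of that pyruvate leaves the cell as lactate. The hypoxia-inducible factor HIF-1, whose oxygen-labile subunit is encoded by Hif1a, raises the transcription of many genes of this chain, together with genes such as Vegfa and Car9, when prolyl hydroxylases of the Egln family lack oxygen. Several steps have tissue-specific isoforms, so a smooth muscle wall and a cultured cell can run the same step on different genes.

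The arrays came from 4 groups of mouse samples. The C57BL/6J line (2xSCS2F10; 3 arrays) was established from stomach muscle of wild-type mice and kept at 37 °C in a neural stem cell proliferation medium containing 5% chick embryo extract. The tsA58 line (2xSCS70; 3 arrays) was established from H-2Kb-tsA58 mice, which are transgenic for a heat-labile SV40 large T antigen driven by the interferon-responsive H-2Kb promoter, and was kept in that base medium at 39.5 °C with no interferon-gamma and no extract named. The other groups were the source tissues, the muscular layers of the stomach of C57BL/6J mice (2 arrays) and of H-2Kb-tsA58 mice (3 arrays). Both lines are labelled as progenitors or stem cells of ICC (interstitial cells of Cajal), pacemaker cells of the gut that depend on Kit, and each is a single clone in origin. Age and sex of the mice are not given in the sources used here. Strain, transgene, temperature and extract change together between the lines, so they cannot be told apart. Replicates are titled biological, but nothing states that they came from separate cultures or animals, so p-values measure the spread between these arrays, which may be technical. In such bulk RNA, fewer cells of a type and less RNA per cell cannot be told apart.

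Values are RMA log2 intensities, on which a difference of 1 is a 2-fold change, and levels of different genes are not compared, since probe sets differ in response. The array medians lay between 4.66 and 4.84, and a level near them could not be told from background. The actin control probe sets, read at the 3' and 5' end of the transcript, had a log2 ratio that ran from 0.84 to 1.04 on the C57BL/6J arrays and from 0.05 to 0.85 on the tsA58 arrays. Replicate 3 of the tsA58 line stood apart from the other two on the second principal component, at 19 against 62.7 and 67.5, and it had the lowest actin ratio. The mean of the 8 smooth muscle markers was 7.24 to 7.69 and 5.39 to 6.77 on the arrays of the C57BL/6J and tsA58 lines, and 11.73 to 11.86 and 12.93 to 13.23 on those of their tissues. Gastric epithelium markers (8 genes, 10.07 to 12.74 on the tissue arrays) and enteric neuron markers (6 genes, 8.87 to 10.13) were also high in tissue, so the wall is a mixture of cell types. Kit, the defining receptor of mature ICC, was below the array median on every array of both lines (3.60 ± 0.26 and 3.51 ± 0.32, SD, n = 3) and stood at 7.15 ± 0.46 (n = 2) and 7.87 ± 0.66 (n = 3) in the tissues. Of the other ICC markers, Cacna1h was also below the median on all line arrays. Ano1 was above it on all of them, at 6.03 to 6.56 in the C57BL/6J line and 6.29 to 7.82 in the tsA58 line. Its tissue means were 9.91 and 9.83. All 4 listed progenitor markers (Cd44, Cd34, Insr and Igf1r) were above the median on all arrays, those of the tissues included.

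In the C57BL/6J line most of the glycolytic chain was higher than in its source tissue. A gene is called changed when its limma p, adjusted by the Benjamini-Hochberg method over all 13286 genes, is below 0.05 and the change is at least 2-fold. Of the 32 genes, 19 rose and 1 fell in the C57BL/6J line, which is 59.4% and 3.12% of them. Among all genes tested, 34.1% were called in this comparison, 17.5% higher and 16.6% lower. The median change of the 32 was 1.54, against 0.12 for all genes. By step, the higher genes were 2 of 4 carriers, 7 of 8 enzymes of upper glycolysis, all 6 enzymes of lower glycolysis, 2 of 3 regulators, 1 of 3 oxygen-sensing genes and 1 of 6 further hypoxia-response genes.

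In the tsA58 line the same genes split. Of the 32 genes, 8 rose and 4 fell relative to tsA58 tissue, or 25% and 12.5%, where 31.7% of all genes were called, 12.8% higher and 18.9% lower. The median change was 0.04, against 0 for all genes; under cyclic loess normalisation it was -0.07 against -0.11. All 8 genes that rose in the tsA58 line had also risen in the C57BL/6J line, 10 passed the rule as higher in the C57BL/6J line but not in the tsA58 line, and 10 were called in neither. Whether the changes themselves differed is tested separately, as the difference of the differences. Slc2a3 fell in both, Aldoc was called in opposite directions, and Ldhb and Adm were called, as lower, in the tsA58 line alone. Without replicate 3 of the tsA58 line, which stood apart, 7 rose and 6 fell, without its replicate 2, 12 rose and 3 fell, and under quantile normalisation 10 rose and 4 fell. The shares of all genes called were then 34.3%, 30.9% and 31.6%. The tissue markers above differed in the same comparisons, with 6 of 8 smooth muscle markers lower in the C57BL/6J line and 8 of 8 lower in the tsA58 line than in tissue, and all 6 neuronal markers lower in both. Their part in the differences of the glycolytic genes was not tested.

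**Figure D1:**
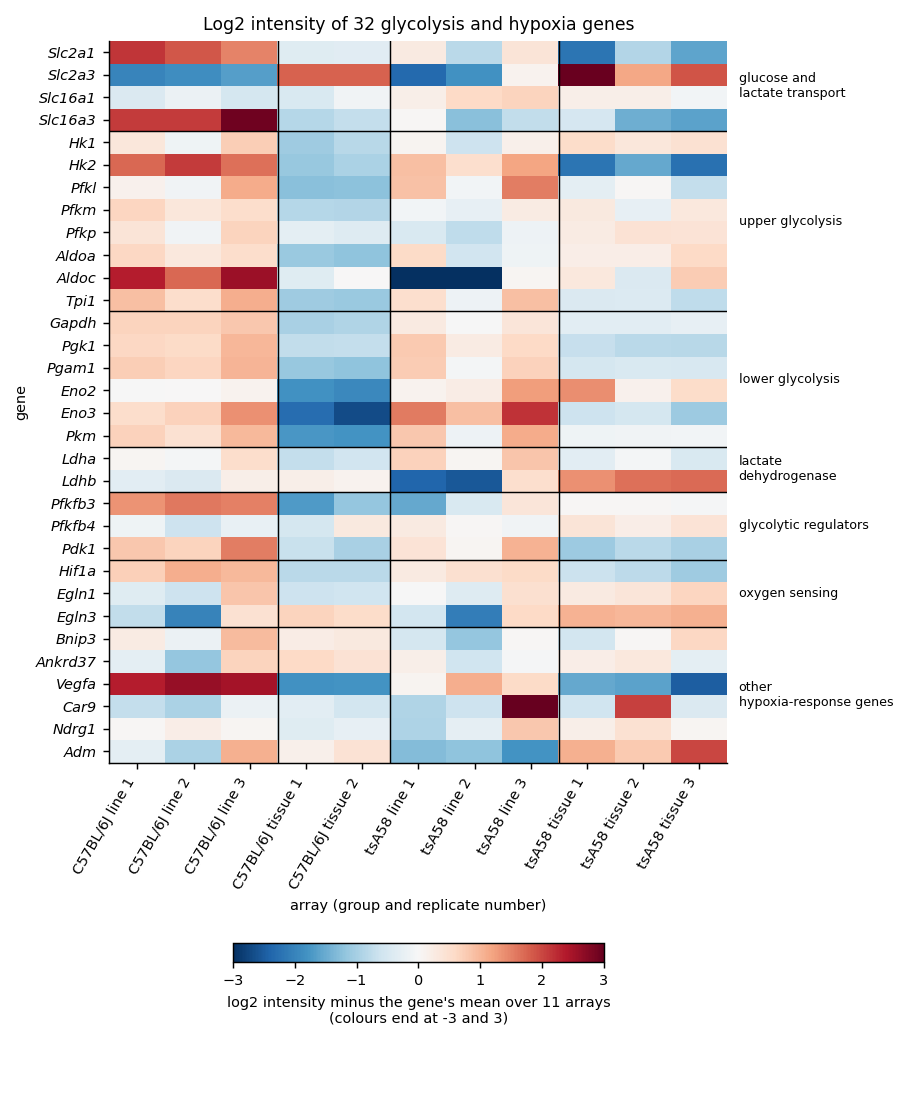
Log2 intensity of the 32 genes on the 11 arrays, each gene shown as its difference from its own mean over all arrays, with colours from -3 (blue) to 3 (red); lines separate the 4 groups (columns) and the roles (gene rows). The columns of the C57BL/6J line are mostly red in the glycolytic enzymes, those of C57BL/6J tissue mostly blue, and Aldoc, Ldhb and Car9 differ between arrays of the tsA58 line.

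The genes that rose in both lines were Slc2a1, Hk2, Pfkl, Pgk1, Eno3, Pdk1, Hif1a and Vegfa. Hif1a read 11.28, 11.65 and 11.53 in the C57BL/6J line, 9.75 and 9.75 in C57BL/6J tissue, 10.82, 11.04 and 11.13 in the tsA58 line, and 9.92, 9.78 and 9.50 in tsA58 tissue. On the probe set used, every line array lay above every tissue array, and the tissues overlapped (difference -0.01 ± 0.20, adjusted p = 0.968). The change was 1.74 ± 0.20 (adjusted p = 5.69e-05) in the C57BL/6J line and 1.26 ± 0.18 (adjusted p = 0.000222) in the tsA58 line, or 3.34-fold and 2.4-fold. The array measures the Hif1a transcript and not the protein, which is the form that oxygen controls.

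Hk2, the inducible hexokinase that traps glucose in the cell by phosphorylation, read 9.45, 9.82 and 9.38 in the C57BL/6J line, 6.59 and 6.79 in C57BL/6J tissue, 8.64, 8.23 and 8.90 in the tsA58 line, and 5.53, 6.19 and 5.49 in tsA58 tissue. The line and tissue arrays did not overlap in either strain. The changes were nearly of the same size, 2.86 ± 0.27 (adjusted p = 1.86e-05) and 2.85 ± 0.25 (adjusted p = 6.63e-06), and the difference between them was -0.01 ± 0.37 (adjusted p = 0.99).

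Vegfa, the endothelial growth factor and a classical HIF target, had the largest change of the 32 in the C57BL/6J line. It read 10.68, 10.95 and 10.82 in the C57BL/6J line, 6.51 and 6.53 in C57BL/6J tissue, 8.41, 9.43 and 8.90 in the tsA58 line, and 6.78, 6.71 and 5.86 in tsA58 tissue. On the probe set used, the tissues overlapped, while both lines lay above them and the C57BL/6J line lay above the tsA58 line. The change was 4.30 ± 0.33 (adjusted p = 4.44e-06) in the C57BL/6J line (19.7-fold) and 2.46 ± 0.29 (adjusted p = 7.28e-05) in the tsA58 line (5.5-fold).

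Eno3, the muscle-type enolase, was higher in cultured cells than in the muscle wall. It read 8.79, 8.95 and 9.63 in the C57BL/6J line, 5.97 and 5.58 in C57BL/6J tissue, 9.82, 9.16 and 10.43 in the tsA58 line, and 7.65, 7.74 and 7.16 in tsA58 tissue. Both lines, which overlapped each other, lay above both tissues, and tsA58 tissue lay above C57BL/6J tissue. Its change was 3.35 ± 0.37 (adjusted p = 4.97e-05) in the C57BL/6J line and 2.28 ± 0.33 (adjusted p = 0.000292) in the tsA58 line.

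Slc2a1, which encodes the basal glucose transporter GLUT1, read 11.43, 11.14 and 10.75 in the C57BL/6J line, 8.92 and 8.94 in C57BL/6J tissue, 9.55, 8.48 and 9.65 in the tsA58 line, and 7.08, 8.40 and 7.68 in tsA58 tissue. The lowest value among the tsA58 line arrays, 8.48, was just above the highest tsA58 tissue array, 8.40. The change was 2.18 ± 0.42 (adjusted p = 0.00168) in the C57BL/6J line and 1.51 ± 0.38 (adjusted p = 0.00738) in the tsA58 line.

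Pgk1, the first ATP-forming enzyme of the chain, had means of 12.40 ± 0.23, 10.94 ± 0.02, 12.22 ± 0.27 and 10.90 ± 0.09 in the C57BL/6J line, C57BL/6J tissue, the tsA58 line and tsA58 tissue (SD, n = 3, 2, 3 and 3, an order kept for the means below). It rose by 1.46 ± 0.21 in the C57BL/6J line and 1.33 ± 0.19 in the tsA58 line (adjusted p = 0.000268 and 0.000234). Its other probe sets gave smaller changes, 0.834 and 0.83 in the C57BL/6J line and 1.137 and 0.936 in the tsA58 line. Pdk1, a kinase that turns off pyruvate dehydrogenase and so holds pyruvate out of the mitochondrial oxidation path, had means of 9.26 ± 0.47, 7.44 ± 0.22, 8.76 ± 0.49 and 7.30 ± 0.14. It rose by 1.82 ± 0.32 and 1.47 ± 0.29 (adjusted p = 0.000953 and 0.00187). The other Pdk1 probe sets gave 0.947, 0.909 and 1.42 in the C57BL/6J line. In the tsA58 line they gave 1.439, 0.999 and 1.85. For Pgk1 and Pdk1 the lines and tissues did not overlap in either strain on the probe sets used. Pfkl, the liver-type phosphofructokinase, had means of 9.33 ± 0.64, 7.71 ± 0.03, 9.74 ± 0.81 and 8.62 ± 0.37. It rose by 1.62 ± 0.46 and 1.11 ± 0.41 (adjusted p = 0.0148 and 0.0461), and here tsA58 line replicate 2 (8.88) lay below tsA58 tissue replicate 2 (8.98). With tsA58 line replicate 3 left out, Pfkl was no longer called in the tsA58 line (0.74, adjusted p = 0.146), and the call was lost too without replicate 1 of the tsA58 line, of the C57BL/6J line or of tsA58 tissue, without either C57BL/6J tissue array and without tsA58 tissue replicate 3. In the C57BL/6J line it was not called when replicate 1 (1.59, adjusted p = 0.0761) or 2 (1.64, adjusted p = 0.0693) of C57BL/6J tissue was left out.

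**Figure D2:**
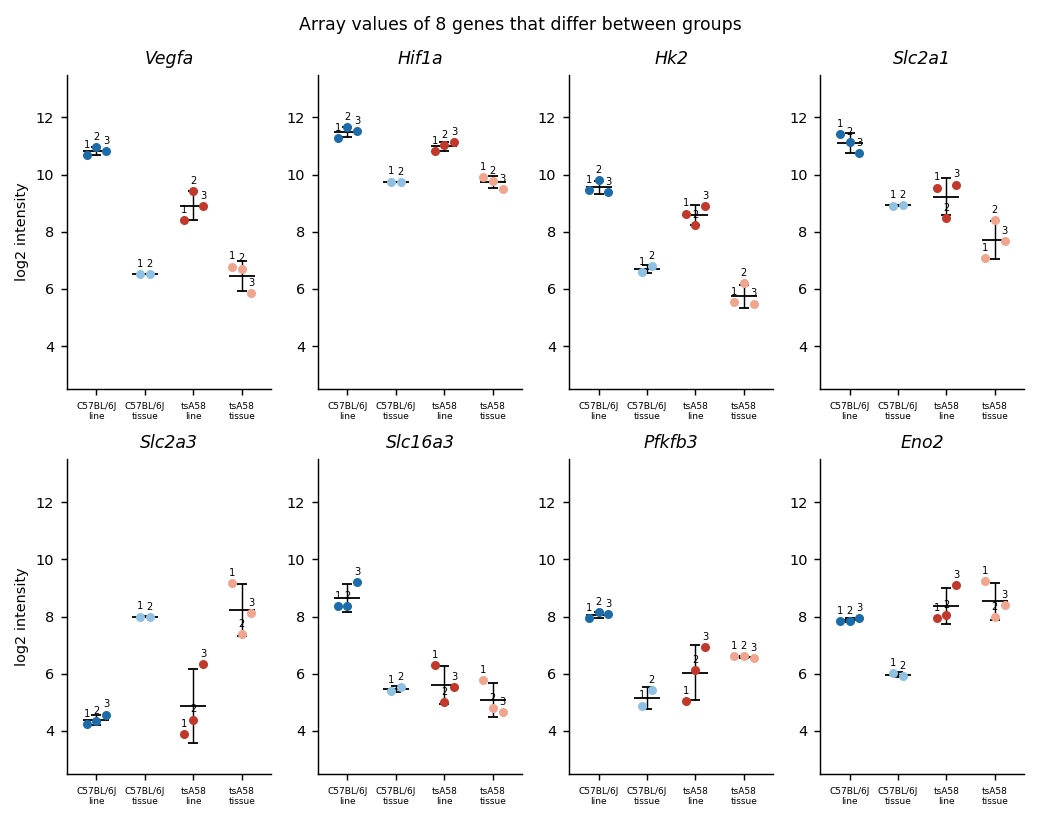
Log2 intensity of Vegfa, Hif1a, Hk2, Slc2a1, Slc2a3, Slc16a3, Pfkfb3 and Eno2 on every array; numbered points are replicates, black bars are the group mean and SD (n = 3, 2, 3 and 3 from left to right). Vegfa, Hif1a and Hk2 stand above tissue in both lines, Slc2a3 below it in both, and Slc16a3 and Pfkfb3 are highest in the C57BL/6J line.

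HIF binds DNA at a short core, written A or G followed by CGTG. Windows of 300 bases around RefSeq transcription starts (250 before to 50 after, GRCm38.p6) were searched for ACGTG and GCGTG on both strands. A window was found for 30 of the 32 genes, and 28 of them held either motif and 21 held ACGTG. A gene with several windows was counted as holding a motif if any of them did. Over all 27025 genes with a window the shares were 46.7% and 21.8%. A match is a description of the letters and not a binding site. Of the 8 genes that rose in both lines, all 8 held either motif and 5 held ACGTG in at least 1 window. Vegfa and Pdk1 each also had a window with no match. Of those 8, Hif1a, Hk2 and Pgk1 hold ACGTG more than once in the 250 bases before their starts and are printed to show its position. With both strands counted, 10 of the 30 genes with a window had such repeats. The others were Ldha, Slc16a1, Slc16a3, Pfkfb3, Pfkm, Bnip3 and Ankrd37. In Slc16a1, Pfkfb3, Pfkm and Bnip3 the repeat is only a CACGTG, which holds ACGTG on both strands. Ldha, Slc16a3 and Ankrd37 hold copies at separate positions before a start, so separate copies were not confined to the printed genes. Whether repeats were more frequent among genes that rose in both lines was not tested. The sequences run 5' to 3' along the gene's strand up to the base before the start, and capitals mark ACGTG, or CACGT where it lies on the opposite strand.
Hif1a, chr12:73907617-73907866, plus strand: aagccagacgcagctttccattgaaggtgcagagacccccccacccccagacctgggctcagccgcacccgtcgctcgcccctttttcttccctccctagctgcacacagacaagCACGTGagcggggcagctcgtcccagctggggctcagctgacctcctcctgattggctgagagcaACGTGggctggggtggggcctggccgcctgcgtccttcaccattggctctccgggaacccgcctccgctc
Hk2, chr6:82774455-82774704, minus strand: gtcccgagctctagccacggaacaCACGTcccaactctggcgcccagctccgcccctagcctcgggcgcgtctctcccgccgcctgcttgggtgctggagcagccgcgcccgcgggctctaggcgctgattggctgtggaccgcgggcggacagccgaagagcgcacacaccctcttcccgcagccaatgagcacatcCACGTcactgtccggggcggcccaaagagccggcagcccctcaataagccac
Pgk1, chrX:106186850-106187099, plus strand: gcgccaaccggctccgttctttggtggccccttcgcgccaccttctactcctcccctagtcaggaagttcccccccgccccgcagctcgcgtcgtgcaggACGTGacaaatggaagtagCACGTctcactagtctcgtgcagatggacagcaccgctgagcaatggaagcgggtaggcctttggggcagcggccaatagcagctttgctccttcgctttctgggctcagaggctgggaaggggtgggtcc
In Hif1a the motif is read 3 times, since its CACGTG, with its leftmost base at -135 from the start, holds ACGTG on both strands and overlaps itself, and a further copy begins at -70. In Hk2 both copies lie on the opposite strand, with leftmost bases at -226 and -52. In Pgk1 the copies begin at -150 and -131, on opposite strands.

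Glucose carriers moved in opposite directions. Slc2a3, the high-affinity transporter GLUT3 that is typical of neurons, fell in both lines while Slc2a1 rose. Slc2a3 read 4.23, 4.35 and 4.57 in the C57BL/6J line, 8.0 and 7.98 in C57BL/6J tissue, 3.88, 4.40 and 6.33 in the tsA58 line, and 9.17, 7.39 and 8.12 in tsA58 tissue. It was above the array median on 0 of 3 arrays of the C57BL/6J line and 1 of 3 of the tsA58 line, so the change into the lines is understated. The fall was -3.61 ± 0.65 (adjusted p = 0.00108) and -3.36 ± 0.58 (adjusted p = 0.00085), and it was the only gene of the 32 to fall in both lines. Slc2a3 was read from a probe set that can bind related transcripts. All 6 neuronal markers were lower in both lines than in tissue, though Uchl1 and Snap25 stayed well above the array median in the C57BL/6J line (7.78 to 8.09 and 7.61 to 8.31), and their part in the Slc2a3 difference was not tested.

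The lactate carriers separated the lines. Slc16a3, the exporter MCT4 of highly glycolytic cells, read 8.36, 8.37 and 9.20 in the C57BL/6J line, 5.41 and 5.55 in C57BL/6J tissue, 6.32, 5.01 and 5.52 in the tsA58 line, and 5.77, 4.80 and 4.67 in tsA58 tissue. The C57BL/6J line lay above every other array, while the tsA58 line overlapped both tissues and stayed close to background. The change was 3.17 ± 0.43 (adjusted p = 0.000186) in the C57BL/6J line, or 8.97-fold, and 0.53 ± 0.39 in the tsA58 line (adjusted p = 0.283). Slc16a1, the broadly expressed carrier MCT1, averaged 9.32 ± 0.18 (SD, n = 3) in the C57BL/6J line, 9.42 ± 0.26 (n = 2) in its tissue, 10.19 ± 0.27 (n = 3) in the tsA58 line and 9.79 ± 0.15 (n = 3) in tsA58 tissue. Neither line differed from its tissue in Slc16a1 by the call rule (adjusted p = 0.744 and 0.123).

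Of the other 6 enzymes of upper glycolysis, 5 rose in the C57BL/6J line and 0 in the tsA58 line. Hk1, the constitutive hexokinase, had means of 8.99 ± 0.44, 7.72 ± 0.17, 8.55 ± 0.43 and 9.12 ± 0.11. It rose by 1.28 ± 0.29 (adjusted p = 0.00474) in the C57BL/6J line and was at -0.58 ± 0.26 in the tsA58 line (adjusted p = 0.0947). The muscle-type phosphofructokinase Pfkm, with means of 9.71 ± 0.15, 8.34 ± 0.02, 9.19 ± 0.25 and 9.33 ± 0.32, rose by 1.38 ± 0.23 (adjusted p = 0.00066) in the C57BL/6J line and was at -0.14 ± 0.20 in the tsA58 line (adjusted p = 0.595). The platelet-type Pfkp averaged 9.31 ± 0.40, 8.64 ± 0.07, 8.54 ± 0.30 and 9.36 ± 0.10 and was not called in either comparison, at 0.67 ± 0.25 (adjusted p = 0.0522) and -0.82 ± 0.23 (adjusted p = 0.0126, under 2-fold). With the mean of its 3 probe sets Pfkp rose in the C57BL/6J line by 1.49 (adjusted p = 0.00099). Tpi1, triose phosphate isomerase, averaged 12.48 ± 0.28, 10.55 ± 0.04, 12.06 ± 0.54 and 11.11 ± 0.19. It rose by 1.93 ± 0.29 (adjusted p = 0.000384) in the C57BL/6J line, and its 0.96 ± 0.26 in the tsA58 line (adjusted p = 0.0122) was just under 2-fold, with no overlap of line and tissue arrays. Without tsA58 line replicate 2, or tsA58 tissue replicate 1 or 2, Tpi1 passed at 1.24, 1.01 and 1.02.

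Aldoa, the muscle-type aldolase, read 12.33, 12.03 and 12.25 in the C57BL/6J line, 10.60 and 10.51 in C57BL/6J tissue, 12.29, 11.14 and 11.60 in the tsA58 line, and 11.92, 11.92 and 12.32 in tsA58 tissue. The C57BL/6J line lay above its tissue by 1.65 ± 0.30 (adjusted p = 0.0011), while tsA58 line and tissue overlapped (-0.38 ± 0.27, adjusted p = 0.265). Aldoc, the aldolase typical of brain, read 11.23, 10.61 and 11.46 in the C57BL/6J line, 8.53 and 8.90 in C57BL/6J tissue, 5.42, 5.37 and 8.94 in the tsA58 line, and 9.20, 8.46 and 9.65 in tsA58 tissue. Replicates 1 and 2 of the tsA58 line were close to background and replicate 3 lay within the range of the tissues. Aldoc was the only gene called in opposite directions, at 2.39 ± 0.88 (adjusted p = 0.0469) in the C57BL/6J line and -2.52 ± 0.79 (adjusted p = 0.0226) in the tsA58 line. The tsA58 line replicates of Aldoc differed by over 3 log2 units, and the model shares that spread with all groups. Without tsA58 line replicate 3 the tsA58 change was -3.70 (adjusted p = 2.71e-05). The rise of Aldoc in the C57BL/6J line was not called when any 1 of the 3 arrays of that line (adjusted p between 0.0638 and 0.11), either array of its tissue (0.185 and 0.126) or any 1 tsA58 tissue array (0.0514 to 0.0588) was left out. The fall in the tsA58 line was lost when replicate 1 (-1.94, adjusted p = 0.09) or 2 (-1.92, adjusted p = 0.0859) of that line was removed, or replicate 1 (adjusted p = 0.054) or 3 (adjusted p = 0.0753) of tsA58 tissue.

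In lower glycolysis all 6 genes rose in the C57BL/6J line, and Pgk1 and Eno3 also rose in the tsA58 line. Gapdh, the dehydrogenase that often serves as a reference transcript, read 13.33, 13.33 and 13.47 in the C57BL/6J line, 11.69 and 11.75 in C57BL/6J tissue, 12.94, 12.65 and 13.04 in the tsA58 line, and 12.35, 12.36 and 12.43 in tsA58 tissue. The 4 groups did not overlap at all. Gapdh rose by 1.66 ± 0.18 (adjusted p = 3.36e-05) in the C57BL/6J line, or 3.15-fold, and differed by 0.50 ± 0.16 (adjusted p = 0.0228) in the tsA58 line, which is under 2-fold. Pgam1, phosphoglycerate mutase, averaged 11.36 ± 0.19, 9.38 ± 0.05, 11.02 ± 0.46 and 10.07 ± 0.03. It rose by 1.98 ± 0.25 (adjusted p = 0.000113) in the C57BL/6J line and differed by 0.95 ± 0.22 (adjusted p = 0.00523) in the tsA58 line, also just under 2-fold. Without tsA58 line replicate 2 the Pgam1 difference was 1.22 (adjusted p = 0.000466).

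Pkm, the pyruvate kinase that ends the chain, read 11.82, 11.59 and 12.11 in the C57BL/6J line, 9.38 and 9.35 in C57BL/6J tissue, 11.94, 10.99 and 12.25 in the tsA58 line, and 11.003, 11.03 and 11.05 in tsA58 tissue. C57BL/6J tissue was lowest, and the lowest array of the tsA58 line, 10.99, lay just below tsA58 tissue. Pkm rose by 2.48 ± 0.32 (adjusted p = 0.000133) in the C57BL/6J line and was 0.70 ± 0.29 in the tsA58 line (adjusted p = 0.0666). Leaving out tsA58 line replicate 2 took the tsA58 value to 1.07 (adjusted p = 0.00222). Eno2, the enolase of neurons and endocrine cells, read 7.84, 7.85 and 7.96 in the C57BL/6J line, 6.04 and 5.91 in C57BL/6J tissue, 7.95, 8.06 and 9.10 in the tsA58 line, and 9.23, 7.97 and 8.39 in tsA58 tissue. Its values in C57BL/6J tissue were below all other arrays. Eno2 rose by 1.91 ± 0.39 (adjusted p = 0.00238) in the C57BL/6J line, and in the tsA58 line the groups overlapped (-0.16 ± 0.35, adjusted p = 0.736). Of the enolases measured, Eno3 therefore rose in both lines and Eno2 in the C57BL/6J line only.

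Lactate dehydrogenase is a tetramer of subunits encoded by Ldha, which favours lactate formation, and Ldhb, which favours the reverse reaction. Ldha read 11.51, 11.40 and 11.98 in the C57BL/6J line, 10.72 and 10.88 in C57BL/6J tissue, 12.15, 11.52 and 12.28 in the tsA58 line, and 11.14, 11.39 and 10.98 in tsA58 tissue. Each line lay above its tissue without overlap, but the changes were under 2-fold, 0.83 ± 0.27 (adjusted p = 0.0258) in the C57BL/6J line and 0.81 ± 0.24 (adjusted p = 0.017) in the tsA58 line (1.04, and called, without tsA58 line replicate 2). Ldhb read 8.62, 8.51 and 9.14 in the C57BL/6J line, 9.12 and 9.06 in C57BL/6J tissue, 6.57, 6.41 and 9.44 in the tsA58 line, and 10.31, 10.61 and 10.64 in tsA58 tissue. In the C57BL/6J line it overlapped tissue (-0.34 ± 0.71, adjusted p = 0.731). In the tsA58 line Ldhb fell, with a change of -3.04 ± 0.64 (adjusted p = 0.00274), and of -4.03 (adjusted p = 5.76e-07) without replicate 3, the array on which it was high. The difference between these line-tissue changes of Ldhb was -2.71 ± 0.96 (adjusted p = 0.0655), and -3.69 (adjusted p = 9.03e-05) without that array.

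Pfkfb3 encodes a bifunctional enzyme, mainly a kinase, that makes the allosteric activator of phosphofructokinase. It read 7.94, 8.16 and 8.09 in the C57BL/6J line, 4.89 and 5.42 in C57BL/6J tissue, 5.06, 6.13 and 6.95 in the tsA58 line, and 6.62, 6.62 and 6.55 in tsA58 tissue. The C57BL/6J line lay above all other arrays, and its tissue was near background. The change was 2.91 ± 0.42 (adjusted p = 0.000284) in the C57BL/6J line and -0.55 ± 0.38 in the tsA58 line (adjusted p = 0.257). A second Pfkfb3 probe set, nearer background with group means of 4.62 to 5.41, gave 0.79 in the C57BL/6J line. In the tsA58 line it gave 0.43, of the opposite sign. Without tsA58 line replicate 3 the tsA58 value became -1.003 (adjusted p = 0.0162). The related Pfkfb4, with means of 5.77 ± 0.26, 5.97 ± 0.58, 6.16 ± 0.19 and 6.43 ± 0.11, was called in neither line, at -0.19 ± 0.26 and -0.27 ± 0.23 (adjusted p = 0.579 and 0.374).

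**Figure D3:**
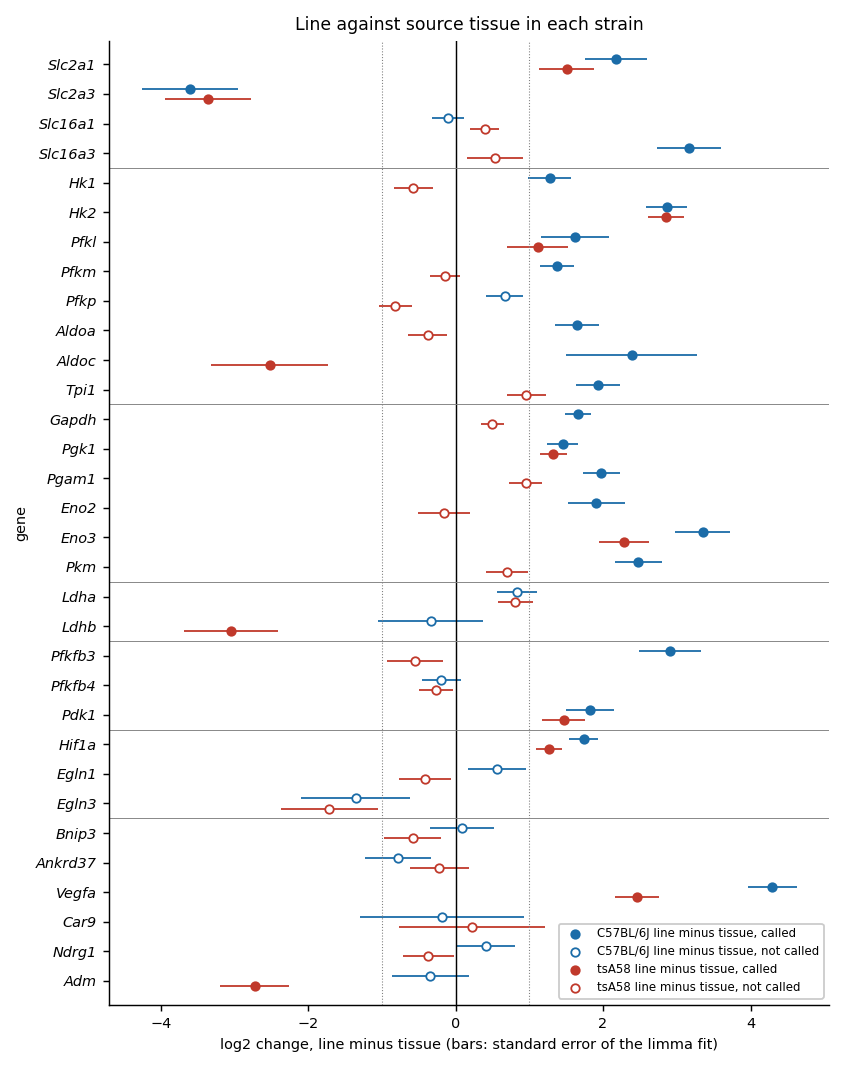
Log2 change from source tissue to line for the 32 genes, in C57BL/6J (blue) and tsA58 (red); bars are standard errors of the limma fit, filled points passed the call rule, and dotted lines mark 2-fold. Blue points lie to the right for most glycolytic genes, Slc2a3 is to the left in both strains, and Aldoc lies on opposite sides.

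Among the oxygen-sensing genes of the 32, read from the probe set used for each, Hif1a alone was called in a line against its tissue. Egln1, the main prolyl hydroxylase, averaged 8.75 ± 0.78, 8.19 ± 0.03, 8.82 ± 0.44 and 9.23 ± 0.20. Its change was 0.56 ± 0.39 (adjusted p = 0.268) in the C57BL/6J line and -0.41 ± 0.35 (adjusted p = 0.367) in the tsA58 line. The other Egln1 probe set gave 1.77 and 0.60, and with the mean of both Egln1 was called higher in the C57BL/6J line (1.17, adjusted p = 0.0419). Egln3, a hydroxylase that is itself HIF-inducible in many cells and is shown in full because of the spread seen in it, read 8.06, 6.79 and 9.25 in the C57BL/6J line, 9.45 and 9.33 in C57BL/6J tissue, 8.24, 6.71 and 9.37 in the tsA58 line, and 9.83, 9.79 and 9.84 in tsA58 tissue. All line arrays were below all tissue arrays of their strain, yet the lines spread over more than 2 log2 units and the changes were not called, at -1.36 ± 0.74 (adjusted p = 0.158) and -1.71 ± 0.66 (adjusted p = 0.0535). Without replicate 3 of the line in question they were -1.96 (adjusted p = 0.0491) and -2.35 (adjusted p = 0.0108). The tsA58 change of Egln3 also passed, with its value the same and a smaller shared spread, when replicate 2 or 3 of the C57BL/6J line was removed (0.0342 and 0.0353 as adjusted p), and with the actin ratio as a covariate (-1.61, adjusted p = 0.0265). With the replicate number as a block Egln3 was called lower in both lines (-1.77, adjusted p = 0.0244, and -1.71, adjusted p = 0.0145), its line values having the same order by number in both strains. The other Egln3 probe set, above the median on 10 arrays, gave -0.004 in the C57BL/6J line and -1.15 in the tsA58 line. It thus showed no fall in the C57BL/6J line.

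Among the 6 further hypoxia-response genes, read from the probe set used for each, only Vegfa was called higher in either line. Adm, which encodes the vasodilator peptide adrenomedullin, read 5.83, 5.18 and 7.19 in the C57BL/6J line, 6.27 and 6.55 in C57BL/6J tissue, 4.82, 4.92 and 4.32 in the tsA58 line, and 7.19, 6.90 and 8.13 in tsA58 tissue. The tsA58 line lay below every other array and fell relative to its tissue, with a change of -2.73 ± 0.47 (adjusted p = 0.000837), while the C57BL/6J line overlapped its tissue (-0.34 ± 0.52, adjusted p = 0.627). Bnip3, a mitophagy receptor with means of 10.17 ± 0.57, 10.09 ± 0.05, 9.29 ± 0.60 and 9.87 ± 0.59, was at 0.08 ± 0.43 in the C57BL/6J line and -0.59 ± 0.39 in the tsA58 line (adjusted p = 0.893 and 0.238). Ndrg1, a stress-responsive gene linked to differentiation with means of 9.60 ± 0.09, 9.19 ± 0.09, 9.36 ± 0.88 and 9.73 ± 0.20, was at 0.41 ± 0.39 and -0.37 ± 0.35 (adjusted p = 0.427 and 0.419). Other Ndrg1 probe sets, all above the median on 11 arrays, gave -0.081, 0.476, 1.122 and 1.556 in the C57BL/6J line. In the tsA58 line they gave -0.659, -0.315, -0.058 and -0.225. Ankrd37, a small ankyrin-repeat gene, stayed near background, with means of 5.09 ± 0.92, 5.87 ± 0.11, 5.21 ± 0.40 and 5.43 ± 0.33, and was not called, at -0.78 ± 0.45 (adjusted p = 0.177) and -0.22 ± 0.40 (adjusted p = 0.682). Without C57BL/6J line replicate 3 the Ankrd37 change in the C57BL/6J line was -1.25 (adjusted p = 0.0202).

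Car9, the cell-surface carbonic anhydrase often used as a marker of hypoxic cells, varied between arrays of the same group. It was chosen for full values after these were seen, and read 5.73, 5.51 and 6.28 in the C57BL/6J line, 6.14 and 5.91 in C57BL/6J tissue, 5.55, 5.82 and 9.64 in the tsA58 line, and 5.85, 8.49 and 6.03 in tsA58 tissue. It was high on tsA58 line replicate 3 and tsA58 tissue replicate 2 and lay between 5.51 and 6.28 on the other 9 arrays. On that tissue array the gastric epithelium markers averaged 12.74, against 10.07 and 10.55 in the other tsA58 tissue arrays, and the exocrine pancreas markers 9.56, against 4.70 and 5.34. On tsA58 line replicate 3 both lists stayed low, at 5.52 and 4.48. The part of these cell types in the Car9 level of the tissue was not tested. No comparison of Car9 was called, with -0.19 ± 1.11 and 0.22 ± 0.99 for the lines against tissue (adjusted p = 0.907 and 0.875).

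**Figure D4:**
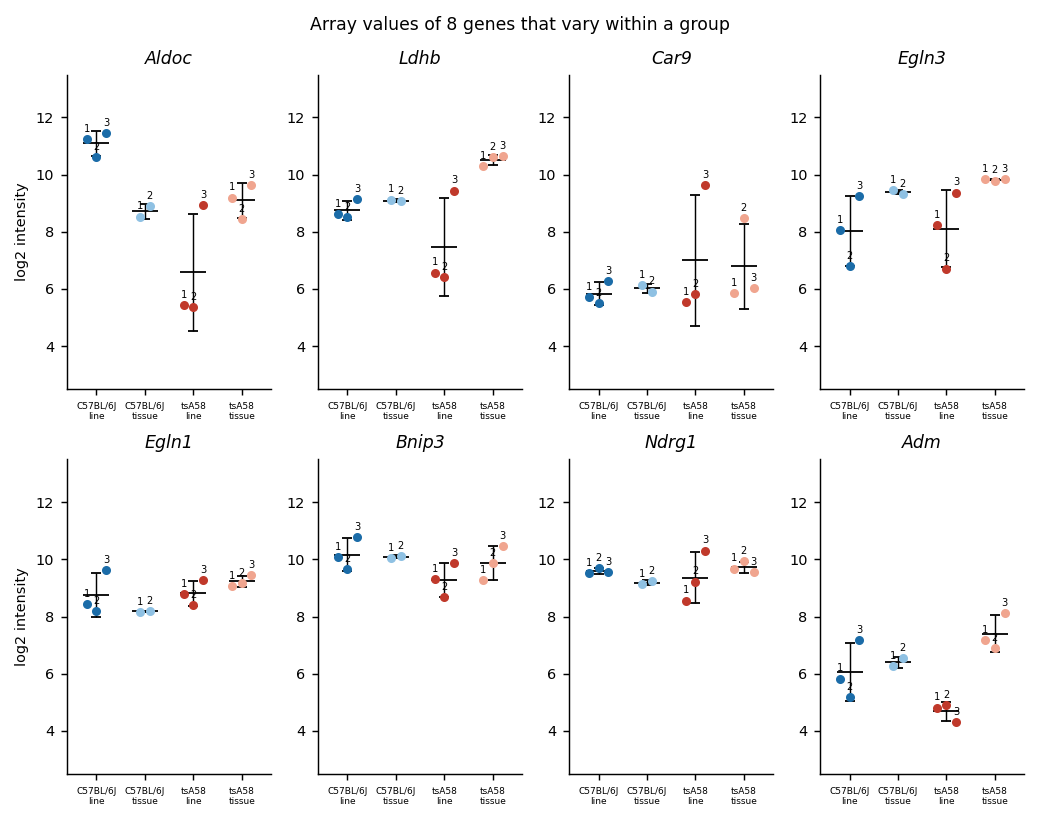
Log2 intensity of Aldoc, Ldhb, Car9, Egln3, Egln1, Bnip3, Ndrg1 and Adm on every array; numbered points are replicates and black bars the group mean and SD (n = 3, 2, 3 and 3). Replicate 3 of the tsA58 line stands above replicates 1 and 2 in Aldoc, Ldhb and Car9, and replicate 3 of both lines is highest in Egln3.

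On replicate 3 of the tsA58 line 24 of the 32 genes had their highest value among the 3 line arrays, or 75%, against 35.4% of all tested genes. On replicate 3 of the C57BL/6J line it was 22, or 68.8%, against 41.4%. In tsA58 tissue the highest values were spread as 9, 12 and 11 genes over replicates 1, 2 and 3. This count was made after the values had been seen and carries no test. Of 15 same-numbered pairs of arrays from different groups, 1 had deviations from the group means correlated above 0.1. This was replicate 2 of the 2 lines, at 0.25. Deviations from a mean of 2 or 3 arrays depend on each other, so this count cannot decide whether the numbers pair arrays.

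Set directly against each other, the tsA58 line was lower than the C57BL/6J line in the genes that were called. Of the 32, 5 were lower and 0 higher (15.6% lower), where 14.2% of all genes were called, 8.38% higher and 5.77% lower. With no minimum fold change, 8 were lower and 1 higher, where 23.1% of all genes were called. The 5 were Aldoc (-4.52 ± 0.79 (adjusted p = 0.00278)), Slc16a3 (-3.03 ± 0.39 (adjusted p = 0.000443)), Pfkfb3 (-2.02 ± 0.38 (adjusted p = 0.00402)), Vegfa (-1.91 ± 0.29 (adjusted p = 0.00142)) and Slc2a1 (-1.88 ± 0.38 (adjusted p = 0.00563)). In fold terms they were lower by 23-fold, 8.16-fold, 4.05-fold, 3.75-fold and 3.69-fold. In each of the 5 the tsA58 arrays lay below all C57BL/6J arrays. The second Pfkfb3 probe set, nearer background, gave -0.07 between the lines. Cell type markers also differed between the lines. Lower in the tsA58 line were 2 of 8 smooth muscle markers (Myl9 at -5.83 and Tagln at -2.55), 2 of 6 neuronal markers (Snap25 at -5.10 and Uchl1 at -3.32, with Prph higher at 1.21) and 2 of 6 macrophage markers (Csf1r at -2.27 and Cd68 at -1.41). Of the 4 ICC progenitor markers 2 were higher (Cd34 at 1.52 and Igf1r at 1.10). Their part in the differences of the glycolytic genes was not tested.

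Most enzymes were not called between the lines. Pgk1 differed by -0.17 ± 0.19, Pkm by -0.11 ± 0.29, Ldha by 0.35 ± 0.24 and Eno2 by 0.49 ± 0.35, none of which was called. Hk2 was lower in the tsA58 line, at -0.96 ± 0.25 (adjusted p = 0.0182), just under 2-fold, and Gapdh was at -0.50 ± 0.16 (adjusted p = 0.0415). Slc16a1 was the reverse case, higher in the tsA58 line by 0.87 ± 0.20 (adjusted p = 0.0105), with no overlap and under 2-fold (1.02, and called, without tsA58 line replicate 1). Hif1a differed by -0.49 ± 0.18 (adjusted p = 0.0687) and Adm by -1.38 ± 0.47 (adjusted p = 0.0564). Adm was called without C57BL/6J line replicate 2 (-1.83) or tsA58 tissue replicate 3 (-1.38), and Hk2 without C57BL/6J line replicate 3 (-1.04). Without tsA58 line replicate 3 there were 8 lower genes, Ldhb (-2.27), Bnip3 (-1.18) and Hk2 (-1.11) having joined. Of all genes 20.2% were then called. The median difference of the 32 was -0.43, against -0.04 for all genes. With arrays centred on the hybridisation controls it turned to 1.06 against 1.45. Then 12 genes were higher and 2 lower, where 57.8% of all genes were called.

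The source tissues differed as well. Of the 32 genes, 6 were higher in tsA58 than in C57BL/6J tissue and 0 lower (18.8% higher), where 12.8% of all genes were called, 9.56% higher and 3.21% lower. Under quantile normalisation 6 were higher and 1 lower, and under cyclic loess 5 and 1, the lower gene being Hk2 (-1.16 and -1.18). Of all genes 11.4% and 10.5% were then called. The 6 were Eno2 (2.56 ± 0.39 (adjusted p = 0.00231)), Eno3 (1.75 ± 0.37 (adjusted p = 0.00993)), Pkm (1.66 ± 0.32 (adjusted p = 0.00615)), Aldoa (1.501 ± 0.30 (adjusted p = 0.00694)), Pfkfb3 (1.44 ± 0.42 (adjusted p = 0.0361)) and Hk1 (1.41 ± 0.29 (adjusted p = 0.00891)). In fold terms these were 5.9-fold, 3.35-fold, 3.16-fold, 2.83-fold, 2.71-fold and 2.65-fold higher, and the arrays of the tissues did not overlap in any of them. Slc2a1 was lower at -1.21 ± 0.42 but not called (adjusted p = 0.0672), and Pgk1, Hif1a and Vegfa differed by -0.05 ± 0.21, -0.01 ± 0.20 and -0.07 ± 0.33. These values hold for the probe set used for each gene. On other probe sets, above the median on at least 9 arrays, the tissue difference was -0.97 and -0.547 for Pgk1 and -0.585 and 0.943 for Hif1a. It was 1.31 for Vegfa and -0.949 and 0.182 for Slc2a1.

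The tissue comparison rests on 2 C57BL/6J arrays, and leaving out either leaves 1 array in that group. Most of the calls were then lost, and the share of all genes called fell as well. Aldoa and Pkm were lost without either array, Eno3 without replicate 2, and Hk1 without replicate 1. Pfkfb3 was lost without any 1 array of the C57BL/6J line or of either tissue. Other genes became called with 1 array left out, namely Slc2a1 (-1.55), Hk2 (-1.18) and Pfkm (1.18) without tsA58 tissue replicate 2, Slc2a1 (-1.21) without tsA58 line replicate 2, Ldhb (1.42) without tsA58 line replicate 3 and Egln1 (1.05) without C57BL/6J line replicate 3. The actin 3' to 5' ratio also separated the tissues, at 0.84 and 1.02 in C57BL/6J and 0.42 to 0.47 in tsA58. With that ratio as a covariate 1 gene was higher and 2 were lower, where 15.5% of all genes were called. Smooth muscle markers moved in the same direction, with 3 of 8 higher in tsA58 tissue and none lower, as did those of macrophages (2 of 6), endothelium (2 of 5), adipocytes (1 of 3, Adipoq at 15.3-fold), skeletal muscle (1 of 4, Ckm at 4.23-fold), enteric glia (1 of 3) and ICC (1 of 3), with none lower in these lists. The progenitor marker Cd44 was lower, at -1.15. No gastric epithelium, exocrine pancreas or neuronal marker was called, but the exocrine pancreas markers averaged 10.53 and 5.52 on the C57BL/6J tissue arrays. Their part in the difference was not tested.

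Whether a line-tissue change differed between the strains was tested as the difference of the differences. Of the 32 genes, 12 had a lower change in tsA58 and 0 a higher one (37.5% lower), where 20.3% of all genes were called, 7.3% higher and 13% lower. The median was -0.97 against -0.18 for all genes. The 4 largest were Aldoc (-4.91 ± 1.19 (adjusted p = 0.0151)), Pfkfb3 (-3.46 ± 0.57 (adjusted p = 0.00284)), Slc16a3 (-2.63 ± 0.58 (adjusted p = 0.0103)) and Adm (-2.38 ± 0.70 (adjusted p = 0.034)). Next came Eno2, Aldoa, Hk1, Vegfa, Pkm, Pfkm, Pfkp and Gapdh, from -2.07 down in size to -1.16. The second Pfkfb3 probe set, nearer background, gave line-tissue changes of 0.79 in C57BL/6J and 0.43 in tsA58. In the same test 5 of 8 smooth muscle, 4 of 6 macrophage, 2 of 6 neuronal, 2 of 5 endothelial and 2 of 3 glial markers were called lower and none higher, as were 1 of 3 each for adipocytes and ICC and 1 of 4 for skeletal muscle, while 2 of 4 ICC progenitor markers were called higher. Their part in the 12 differences was not tested.

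The group levels behind these 12 were of several kinds. For Aldoc, Slc16a3 and Vegfa the tissues were not called apart and the lines were, with the tsA58 line lower. For Eno2, Aldoa, Hk1 and Pkm the lines were not called apart and the tissues were, with tsA58 tissue higher. Pfkfb3 was called in both, and Adm, Pfkm, Pfkp and Gapdh in neither of them. Small differences were measured for Hk2 (-0.01), Ldha (-0.02), Pgk1 (-0.13) and Slc2a3 (0.25), with standard errors of 0.37, 0.36, 0.28 and 0.87, and none was called. Without C57BL/6J tissue replicate 1 or 2, which leaves 1 array in that group, fewer were called, and the share of all genes called fell as well. Without tsA58 line replicate 3 the count was 17, where 27.9% of all genes were called. Ldhb, Eno3, Ndrg1, Tpi1 and Pgam1 were added (Pgam1 also without tsA58 line replicate 1).

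Other genes of the same pathways were counted from lists, to be read against the shares of all genes called higher and lower. These were 17.5% and 16.6% in the C57BL/6J line and 12.8% and 18.9% in the tsA58 line. For the tsA58 line against the C57BL/6J line they were 8.38% and 5.77%. Of 16 tested isoforms and carriers outside the 32, 1 rose and 4 fell in the C57BL/6J line (6.25% and 25%) and 1 rose and 3 fell in the tsA58 line (6.25% and 18.8%, the latter close to all genes). Slc16a7, the high-affinity lactate and pyruvate carrier MCT2, fell in both (-3.41 ± 0.41 and -3.89 ± 0.37), as did Slc2a4, the insulin-responsive transporter GLUT4 of muscle and fat (-1.53 ± 0.32 and -3.60 ± 0.28). Adjusted p was 8.12e-05 and 1.28e-05 for Slc16a7, and 0.00255 and 3.47e-06 for Slc2a4. Bpgm, the bisphosphoglycerate mutase, fell in the C57BL/6J line, with a change of -1.16 ± 0.33 (adjusted p = 0.0154). Adpgk, an ADP-dependent glucokinase, rose by 1.73 ± 0.45 (adjusted p = 0.00901) in the tsA58 line, and Slc2a10, a further facilitative transporter, fell in both lines (-1.05 ± 0.20 (adjusted p = 0.0017) and -1.22 ± 0.18 (adjusted p = 0.000322)). Between the lines 0 of the 16 were called.

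Of 13 other oxygen-sensing genes, 1 rose in the C57BL/6J line, the HIF antagonist Cited2 (1.61 ± 0.31 (adjusted p = 0.00177)), and 1 fell in the tsA58 line, Epas1, which encodes HIF-2 alpha (-2.90 ± 0.49 (adjusted p = 0.000735)). None was called between the lines, and Epas1 there was -1.45 ± 0.49 (adjusted p = 0.0556). In the tsA58 line, then, Hif1a rose and Epas1 fell relative to tissue.

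Of 27 other hypoxia-response genes, 9 rose and 1 fell in the C57BL/6J line (33.3% and 3.7%), and 6 rose and 2 fell in the tsA58 line (22.2% and 7.41%). Their median changes were 1.02 and 0.42, against 0.12 and 0 for all genes. The largest in both were Hmox1, the stress-inducible heme oxygenase (4.55 ± 0.50 (adjusted p = 4.31e-05) and 2.63 ± 0.45 (adjusted p = 0.000748)), Ero1a, an oxidase for protein folding in the endoplasmic reticulum (3.43 ± 0.27 (adjusted p = 5.09e-06) and 2.12 ± 0.24 (adjusted p = 4.69e-05)), and P4ha1, a collagen prolyl hydroxylase subunit (3.09 ± 0.32 (adjusted p = 3.06e-05) and 2.22 ± 0.29 (adjusted p = 0.00013)). Between the lines 0 were higher and 4 lower in tsA58 (14.8% lower, where 8.38% of all genes were higher and 5.77% lower). The lower genes were led by Angptl4, a lipoprotein lipase inhibitor (-2.24 ± 0.51 (adjusted p = 0.0103)), Hmox1 (-1.62 ± 0.45 (adjusted p = 0.0248)) and Ero1a (-1.31 ± 0.24 (adjusted p = 0.00354)).

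Of 12 tested genes that govern the entry of pyruvate into mitochondria, 2 rose and 3 fell in the C57BL/6J line (16.7% and 25%, near the shares of all genes) and 0 rose and 5 fell in the tsA58 line (41.7% lower). Pdk4, the starvation-induced pyruvate dehydrogenase kinase, fell in both lines, with changes of -3.63 ± 0.58 (adjusted p = 0.000538) and -4.67 ± 0.52 (adjusted p = 4.54e-05), opposite to Pdk1. Pdp1, the phosphatase that reactivates pyruvate dehydrogenase, fell likewise, with -1.66 ± 0.29 (adjusted p = 0.000841) and -2.0 ± 0.26 (adjusted p = 0.000119). Pcx, pyruvate carboxylase, rose by 1.68 ± 0.56 (adjusted p = 0.0309) in the C57BL/6J line. Mpc1, a subunit of the mitochondrial pyruvate carrier, fell in both lines, with changes of -1.06 ± 0.24 (adjusted p = 0.00423) and -2.97 ± 0.22 (adjusted p = 1.83e-06). It was also lower in the tsA58 line than in the C57BL/6J line (-1.40 ± 0.22 (adjusted p = 0.0014)), as was the kinase Pdk2 (-1.002 ± 0.24 (adjusted p = 0.0131)).

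In the pentose phosphate pathway 2 of 6 genes rose in the C57BL/6J line, Rpe (1.17 ± 0.34 (adjusted p = 0.017)) and Pgls (1.07 ± 0.18 (adjusted p = 0.000739)), and Rpe also rose in the tsA58 line (1.14 ± 0.31 (adjusted p = 0.0107)). Of 5 gluconeogenesis genes, 2 rose and 1 fell in the C57BL/6J line and 1 rose and 2 fell in the tsA58 line. Of so few genes 1 call is 20% of the list, and 16.7% in the pentose phosphate list. Pck2, the mitochondrial phosphoenolpyruvate carboxykinase, rose in both (2.92 ± 0.31 (adjusted p = 3.4e-05) and 1.73 ± 0.28 (adjusted p = 0.000521)), and Fbp2, the muscle-type fructose bisphosphatase, fell in both (-3.82 ± 0.37 (adjusted p = 2.02e-05) and -1.41 ± 0.33 (adjusted p = 0.00525)). Pck1, the cytosolic carboxykinase, fell in the tsA58 line, with a change of -3.45 ± 0.55 (adjusted p = 0.000486), and G6pc3, a broadly expressed glucose phosphatase, rose by 1.03 ± 0.28 (adjusted p = 0.0114) in the C57BL/6J line. In both of these lists 0 genes were called between the lines.

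Most of the genes could be read a second time. The 32 genes had 72 probe sets, and 20 genes had several. Of 43 called differences between groups, 30 had another probe set above the median on at least 2 arrays, and in all 30 every such probe set had the same sign. The count does not cover the size of the changes, which differed for Pfkfb3, Pgk1 and Pdk1 among others. Nor does it cover results that were not called or the difference of differences.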

How the data were processed

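Total RNA of 11 samples was isolated (Trizol, then a column), and about 50 ng each was amplified in consecutive rounds (oligo(dT), then random priming) and hybridised to Affymetrix Mouse Genome arrays, per the labels' protocols. Deposited were log2 intensities of probe sets, which the authors made with RMA (version not given in the sources used here), according to the submitters' processing notes. The method puts the probe intensities of all arrays on 1 distribution before probe sets are summarised, so changes are relative to the bulk of transcripts. The summarised values still differed somewhat between arrays, with medians from 4.659 to 4.845. The number of arrays limits the precision.

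Of 45101 probe sets, 34958 carried a single symbol in the platform annotation, 932 several and 9211 none. The Entrez identifiers of 34754 were found in a RefSeq table (GRCm38.p6), which changed 0 symbols. Genes above the array median on at least 2 arrays were tested in limma 3.58.1 (R 4.3.3), in 1 model with 4 group means (7 residual and 3.49 prior degrees of freedom), with Benjamini-Hochberg adjustment over 13286 genes in each of 5 comparisons. A gene was called at an adjusted p below 0.05 and a 2-fold change. Full array values are given for the 4 called genes with the largest change in each comparison and for Hif1a, Gapdh, Ldha, Ldhb, Slc2a1, Hk2 and Vegfa, and from each pathway list the 3 largest calls are named; others in full are marked. The genes and lists were chosen with earlier results of these data known. On simulated data with 13286 genes for the C57BL/6J line against tissue, 65% of 100 genes moved by 1.5 and 78% of 100 moved by 2 were called, with 7 false calls. No other genes moved there, while 34.1% of all genes were called in the real comparison. The adjustment depends on that share, so these rates do not give the sensitivity in the data. Alternatives covered normalisation, centring, filter, probe set choice, replicate block, actin ratio, fold minimum, the groups in the fit and leaving out each array. Probe sets with names ending in x or s (Aldoa, Tpi1, Adm, Slc2a3, Ndrg1) can bind related transcripts. Tables were made with pandas 2.3.3 and numpy 2.4.6 and plots with matplotlib 3.10.9 (Python 3.11.15).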

Additional observations from a re-analysis of the deposited data

Results flagged for a closer look

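For 12 genes the change from tissue to line differed between the strains by the limma test of that difference (adjusted p below 0.05 over all genes and at least 2-fold), and in all 12 the tsA58 change was the lower. The differences of the log2 changes, tsA58 minus C57BL/6J, were -4.91 for Aldoc, -3.46 for Pfkfb3, -2.63 for Slc16a3, -2.38 for Adm and -2.07 for Eno2. They were -2.03 for Aldoa, -1.85 for Hk1, -1.84 for Vegfa and -1.78 for Pkm, and -1.52 for Pfkm, -1.48 for Pfkp and -1.16 for Gapdh. For Pfkfb3 a second probe set, nearer background, gave changes of 0.79 in C57BL/6J and 0.43 in tsA58. The comparison draws on all 4 groups, of which C57BL/6J tissue has 2 arrays. Strain, transgene, culture temperature and extract differ together, so they cannot be told apart. In the same test 5 of 8 smooth muscle and 4 of 6 macrophage markers were also called lower in tsA58 and none higher, and their part in these differences was not tested.

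Leaving out C57BL/6J tissue replicate 1 or 2 leaves 1 array in that group, and the share of all genes called then fell as well. Without replicate 1 the calls of Aldoc (-4.72), Adm (-2.24), Eno2 (-2.13), Pkm (-1.79) and Vegfa (-1.83) ended. Without replicate 2 those of Aldoc (-5.09), Adm (-2.52), Eno2 (-2.003), Pkm (-1.76), Vegfa (-1.85) and Pfkp (-1.435) ended. The Adm call also ended without C57BL/6J line replicate 1 (0.0582), tsA58 line replicate 1 (0.0596) or tsA58 tissue replicate 3 (0.0692).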

How the results depend on the processing

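Of 55 called results of a gene in a comparison, 38 kept their call under every alternative run for single genes, 17 lost it under at least 1, and 0 turned sign. Of 105 results that were not called, 42 turned sign under at least 1 alternative and 29 became called. With arrays centred on the hybridisation controls, 14 genes were called between the lines (12 higher, 2 lower), where 57.8% of all genes were called. Between the tissues it was 30 (all higher), where 91.7% of all genes were called. In the difference of differences it was 5, where 4.34% of all genes were called. That centring moved the median of all genes by 1.23 and 0.60 in the C57BL/6J and tsA58 line-tissue comparisons, by 1.49 for the lines, 2.13 for the tissues and -0.64 for the strain difference in line-tissue change. The medians of the 32 genes relative to all genes stayed at 1.42, 0.04, -0.39, 0.37 and -0.79. Cyclic loess moved the median of all genes by -0.21, -0.11, 0.01, -0.13 and 0.11. With the actin ratio as a covariate 10 genes were called between lines and 3 between tissues, where 24.4% and 15.5% of all genes were called. With no minimum fold change it was 9 between lines, where 23.1% of all genes were called. Leaving out 1 array gave 18 to 21 calls for the C57BL/6J line against tissue, 10 to 15 for the tsA58 line against tissue, 5 to 8 for the lines, 2 to 8 for the tissues and 6 to 17 for the strain difference in that change. For the C57BL/6J line against tissue, the tissues and the strain difference, counts were lowest without C57BL/6J tissue replicate 1 or 2, which leaves 1 array in that group. In these comparisons the shares of all genes called were lowest there too. For the tsA58 line against tissue counts were lowest without tsA58 line replicate 1 or tsA58 tissue replicate 3 (10 and 10). There 29.7% and 29.9% of all genes were called. Counts were highest without C57BL/6J line replicate 3 (21), tsA58 line replicate 2 (15, the tsA58 line against tissue), tsA58 tissue replicate 2 (8, the tissues) and tsA58 line replicate 3 (8 for the lines, 17 for the strain difference). The shares of all genes called were, in the same order, 33.2%, 30.9%, 14.4%, 20.2% and 27.9%. With the replicate block the counts were 20, 13, 5, 5 and 11, where 33.7%, 31.6%, 13.9%, 11.1% and 17.1% of all genes were called. Of 15 same-numbered pairs, 1 had a correlation of deviations above 0.1 (range -0.16 to 0.25), which cannot decide whether the numbers pair arrays. For the tissue calls, Pfkfb3 was lost under cyclic loess (1.26), the mean of its probe sets (0.86), the block (1.29) and the actin covariate (0.81), and without any 1 array of the C57BL/6J line or of either tissue. Aldoc in the C57BL/6J line was lost under quantile (2.24) and cyclic loess (2.12) normalisation and with the block (1.84), Pfkl in the tsA58 line under quantile (1.16), cyclic loess (1.05) and the mean of its probe sets (0.89), and Hk1 in the C57BL/6J line under cyclic loess (0.99). In the strain difference quantile normalisation ended the calls of Gapdh (-0.999, just under 2-fold) and Pkm (-1.48), and the block that of Adm (-2.14). Under the actin covariate the tissue calls of Aldoa (1.30), Eno3 (1.09), Hk1 (0.99) and Pkm (0.96) were lost too. The causes of these changes were not tested. With 2 or 3 arrays a group and no detection calls, changes that end near the array median are understated.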
